A study of Bos indicus with 6 samples.

Results

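Iron handling in the oviduct isthmus was described through 9 genes that carry, import, store, export, oxidise or recycle iron, namely TF, TFRC, LTF, FTH1, FTL, SLC40A1, SLC11A2, CP and HMOX1. They were found by exact match of the gene symbol in the row names of the deposited table, which gave 10 of 24616 rows, because SLC11A2 stands under a pair of Ensembl identifiers. The genes were chosen by the normalized count of TF in these samples, since they were brought together around TF, which the study names for its higher level in the LF/LCL isthmus of these same libraries. The differences between the groups given below are therefore a description, and the p-values of these genes are used for counts alone. TF was higher in each LF/LCL cow than in any SF/SCL cow, whereas the values of the groups overlapped for every other row.

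The samples were isthmus tissue of 6 healthy multiparous Nelore (Bos indicus) cows, 3 in the LF/LCL group and 3 in the SF/SCL group, with 1 library per cow. All cows were pre-synchronized with a GnRH agonist and prostaglandin F2α, and later received an intravaginal progesterone device with 2 mg of estradiol benzoate 10 days before the GnRH injection that induced ovulation, and prostaglandin F2α at removal of the device and 6 h later. The LF/LCL cows, meant to ovulate a larger follicle and form a larger corpus luteum, had a further prostaglandin F2α injection when the device was placed and lost the device 42 h before GnRH. The SF/SCL cows, meant to ovulate a smaller follicle and form a smaller corpus luteum, lost it 30 h before GnRH. Tissue was taken on day 4 from the oviduct on the side of the corpus luteum and held the whole thickness of the wall. The cows sequenced were picked from a ranking by follicle, corpus luteum, estradiol and progesterone, highest ranks in LF/LCL and lowest in SF/SCL, so they stand for the extremes of each group and not for its average animal.

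The values are normalized counts, that is, uniquely mapped reads per gene divided by the size factor of the library. The libraries held 23899117 to 34193164 such reads, with a median of 27155932. SF/SCL cow 489215 stood apart from the other cows. Among the 15387 genes tested, its value was at least 3 times the median of the other 5 cows for 323 genes and at most a 1/3 share of it for 2187 genes. OVGP1, the oviduct-specific glycoprotein of secretory cells, was at 730 in this cow, at 271794 and 325158 in SF/SCL cows 856 and 97, and at 287 to 1950 in the LF/LCL cows. The summed level of 9 smooth muscle markers was 802015 to 924578 in LF/LCL, 366997 and 433086 in cows 856 and 97, and 1270440 in cow 489215. The isthmus wall is rich in smooth muscle, and 9 of the 10 markers listed were found by symbol and had reads in every cow. For the tested rows of the 9 iron genes, the value without this cow is given beside the result. For the other iron genes named below whose call or direction it changed, the value or call without it is given.

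Iron circulates bound to transferrin, the product of TF, and cells take it up by endocytosis of transferrin bound to its receptor, the product of TFRC. In the endosome the iron is reduced and carried into the cytosol by the transporter encoded by SLC11A2. Iron that is not used is stored in ferritin, a shell of heavy (FTH1) and light (FTL) chains, or leaves the cell through ferroportin (SLC40A1), helped by a copper oxidase such as ceruloplasmin (CP). Heme oxygenase 1 (HMOX1) frees iron from heme, and lactoferrin (LTF) is a secreted relative of transferrin that binds iron in mucosal fluids and neutrophil granules. Cells also adjust these genes after transcription, since iron regulatory proteins block the ferritin and ferroportin messengers and stabilise that of TFRC when iron is scarce. Values of messenger RNA therefore do not give the amount of the proteins.

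TF (ENSBTAG00000007273) had normalized counts of 162 in LF/LCL cow 617, 157 in cow 79 and 141 in cow 527. It had 32.7 in SF/SCL cow 856, 37.3 in cow 489215 and 32.5 in cow 97. The groups did not overlap, and the lowest LF/LCL value was 3.77 times the highest SF/SCL value. The means were 153 ± 11.3 in LF/LCL and 34.2 ± 2.71 in SF/SCL (SD, n = 3 each), a ratio of 4.49. The log2 fold change of SF/SCL over LF/LCL, on the log2(value + 1) scale of limma, was -2.13 (standard error 0.30). It was -2.20 (standard error 0.25) without cow 489215, which had the TF level of its group although it stood apart for many other genes. Among the 15387 genes tested, the values of the groups did not overlap for 18.1%, with LF/LCL above for 8.60% and SF/SCL above for 9.51%. In bulk tissue, fewer cells of a type and less RNA per cell cannot be told apart.

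TF was a transcript of modest level, and 51.9% of the rows of the table had a mean as high or higher. The rows counted include 5476 at 0 in every cow, so TF stood lower among the genes with reads. The LF/LCL values rested on 155, 167 and 160 reads and the SF/SCL values on 43, 28 and 30. The exact Poisson 95% interval, which covers counting error alone, was 120 to 164 for the lowest LF/LCL value. For the highest SF/SCL value it was 24.8 to 53.9. The genes were gathered around TF for its difference in these libraries, so nothing is read from the gap between these intervals. Counting alone would give an SD of 12.1 in LF/LCL and 6.05 in SF/SCL. The spread of TF among cows of a group was thus no larger than that of counting, which held for no other row.

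**Figure D1:**
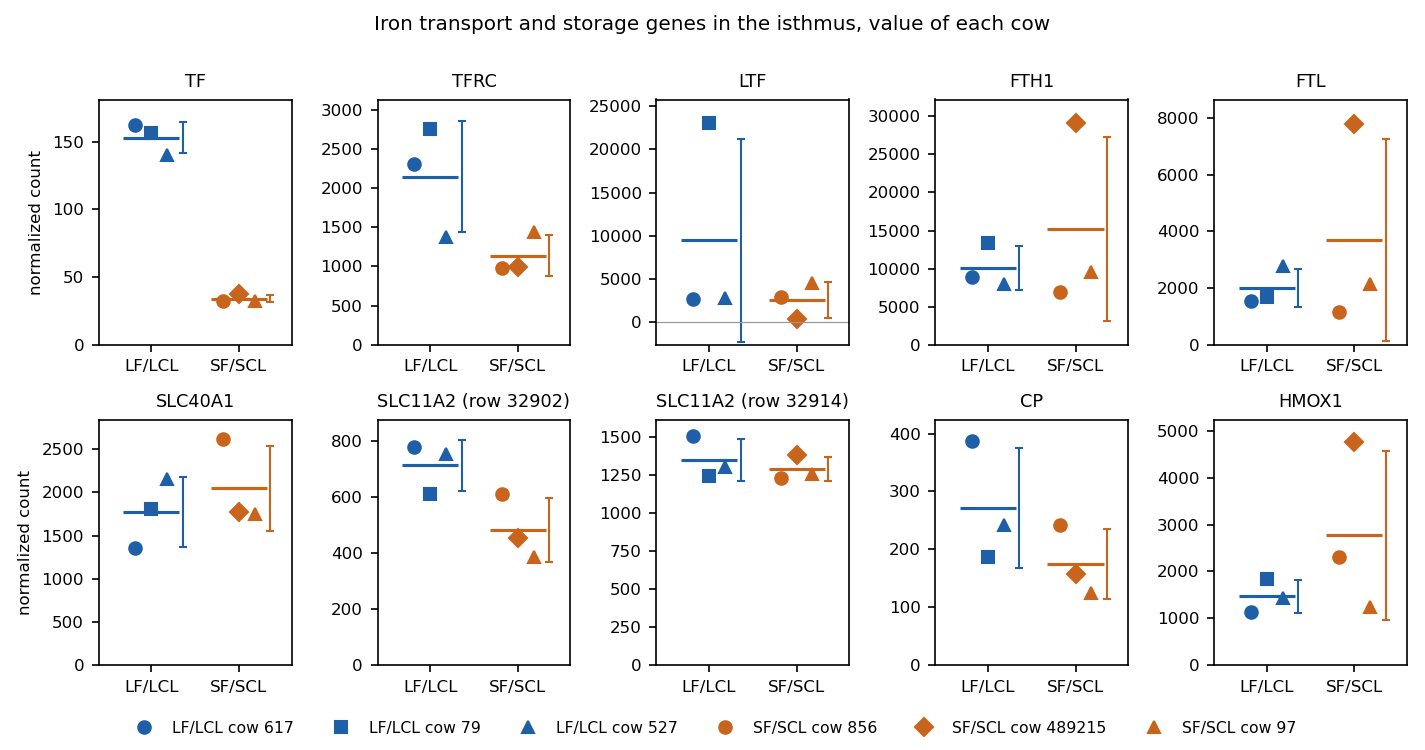
Normalized count (vertical axis, linear) of the 10 rows in each cow, with LF/LCL in blue and SF/SCL in orange, 1 marker per cow; horizontal lines are group means and bars the SD of 3 cows. TF parts the groups, at 141 to 162 against 32.5 to 37.3, whereas cow 489215 is the highest for FTH1, FTL and HMOX1 and LF/LCL cow 79 for LTF.

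TF is made in bulk by hepatocytes and is also known in Schwann cells, so markers of these and other cells were set beside it. Of 9 hepatocyte markers, FGA was listed at 0 in every cow and ALB, the plasma albumin, was at 19.7 to 38.6 in LF/LCL and 13.01 to 30.6 in SF/SCL. The summed level of the list was 1255 to 1634 in LF/LCL and 684 to 3470 in SF/SCL, and most of it came from APOA1 and SERPINA1. Of the 7 Schwann cell markers all were detected and 6 tested. CDH19, a cadherin of Schwann cell precursors, was at 63.8 to 190 in LF/LCL and 15.2 to 22.6 in SF/SCL. SOX10, the defining transcription factor of the lineage, overlapped between the groups, at 54.4 to 128 and 19.7 to 59.9. The summed level of this list ran the other way, from 6061 to 9113 in LF/LCL and from 13930 to 34806 in SF/SCL, and most of it was S100B, which other cells also express. The part of these cells in the TF difference was not tested.

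The epithelium and the muscle also differed between the cows. The summed level of 9 secretory and general epithelial markers was 28854 to 40146 in LF/LCL and 65411 to 378360 in SF/SCL. OVGP1 made up most of it in cows 856 and 97, and the sum of the other 8 was 26904 to 39859 and 47819 to 64682. For the 14 detected ciliated cell markers the sum was 45240 to 57862 in LF/LCL and 51789 to 91159 in SF/SCL. Higher in every SF/SCL cow were 4 of the 8 tested epithelial and 3 of the 14 tested ciliated markers, where 9.51% of all genes tested were. Of the 8 tested fibroblast markers without collagens, 3 (LUM, PDGFRB and FBLN1) were higher in every LF/LCL cow, where 8.60% of all genes tested were. The sum of the fibroblast markers was 120560 to 148908 in LF/LCL and 74737 to 136277 in SF/SCL, taken over all 8. Cow 489215 had fibroblast and muscle sums unlike those of cows 856 and 97, at 136277 and 1270440, and a TF value of 37.3 next to their 32.7 and 32.5. Single markers did not all follow the sums. LUM, PDGFRB and FBLN1 were at 3462, 909 and 17207 in cow 489215, below every LF/LCL cow. Most of the fibroblast sum of that cow came from DCN, at 58982, and MFAP4, at 42006. The groups overlapped for these and for the rest of the fibroblast list. ACTA2 was highest in cow 489215, at 533926. Of the 9 tested muscle markers, 3 (SYNM, MYLK and MYH11) were lower in each SF/SCL cow, cow 489215 included, than in any LF/LCL cow. SYNM was at 4730 in cow 489215 and at 17035 to 20341 in LF/LCL. The part of these tissues in the TF difference was likewise not tested.

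TFRC (ENSBTAG00000032719), the receptor that takes up transferrin, had 2309 in LF/LCL cow 617, 2760.5 in cow 79 and 1370.2 in cow 527. In SF/SCL cows 856, 489215 and 97 it had 978, 995 and 1441. The groups overlapped by a single pair of cows, since cow 527 lay just below cow 97. The means were 2147 ± 709 and 1138 ± 263 (SD, n = 3 each), a ratio of 1.89 in favour of LF/LCL. The log2 fold change was -0.88 (standard error 0.32), and it was -0.79 without cow 489215. TFRC and TF were thus both lower on average in SF/SCL, with the larger log2 fold change for TF, and the ratio of TFRC to TF within a library, which no scaling of libraries can change, was 9.75 to 17.6 in LF/LCL and 26.7 to 44.3 in SF/SCL.

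LTF (ENSBTAG00000001292), the transferrin relative of secretions, varied more among the cows than any other row, 57.5-fold from the lowest to the highest. It had 2669 in LF/LCL cow 617, 23051 in cow 79 and 2766 in cow 527. In SF/SCL it had 2924 in cow 856, 401 in cow 489215 and 4494 in cow 97. Without cows 79 and 489215, the remaining cows of either group lay between 2669 and 4494. The groups overlapped, with means of 9495 ± 11740 and 2607 ± 2065 (SD, n = 3 each). Its SD over the 6 cows, 8430.2, exceeded its mean of 6051, so LTF was the single row of the 10 that failed the filters and was not in the main fit. The difference of the mean log2 values, with no test, was -1.67, and it was -0.64 in the fit without cow 79, where LTF passed the filters.

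Because neutrophil granules hold lactoferrin, 8 neutrophil markers were set beside LTF, of which 7 were found. ELANE was not found by symbol, and MPO, MMP9 and both rows of CXCR2 had means under 5. The summed level of the detected markers was 246 in LF/LCL cow 617, 234 in cow 79 and 134 in cow 527, and 223, 136 and 417 in SF/SCL cows 856, 489215 and 97. Cow 79, with the highest LTF value, lay inside the range of the other cows for these markers. Of the secretory epithelium, OVGP1 was at 1782 in cow 79 and at 1950 in cow 527, whose LTF values were 23051 and 2766. The part of neutrophils and of secretory cells in the LTF values was not tested.

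FTH1 (ENSBTAG00000011184), the ferritin heavy chain that oxidises incoming iron, had 8947, 13395 and 7921 in LF/LCL cows 617, 79 and 527. In SF/SCL it had 6895 in cow 856, 29088 in cow 489215 and 9550.2 in cow 97. FTL (ENSBTAG00000013343), the light chain that favours the mineral core, had 1545, 1666 and 2788 in the LF/LCL cows and 1163, 7774 and 2135 in SF/SCL cows 856, 489215 and 97. Cow 489215 was the highest of the 6 for both chains, at 3.25 times the median of the other cows for FTH1 and 4.67 times for FTL, and the groups overlapped for both. A ratio of at least 3 in this cow was found for 323 of the 15387 genes tested.

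The mean of FTH1 was 10088 ± 2910 in LF/LCL and 15178 ± 12119 in SF/SCL, and that of FTL was 2000 ± 685 and 3691 ± 3569 (SD, n = 3 each). The direction of either difference rested on cow 489215, since the log2 fold change was 0.34 (standard error 0.55) for FTH1 and 0.48 (standard error 0.68) for FTL with all cows and -0.28 (standard error 0.25) and -0.29 (standard error 0.33) without it. The ratio of FTH1 to FTL within a library ran from 2.84 in LF/LCL cow 527 to 8.04 in LF/LCL cow 79 and was 3.74 in cow 489215, so that the LF/LCL values enclosed all SF/SCL values. Ferritin genes have many processed copies in mammalian genomes, and reads that fit several places were not counted, so the levels of FTH1 and FTL are uncertain.

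HMOX1 (ENSBTAG00000015582), the inducible enzyme that opens the heme ring, shared the peak in cow 489215. Its values were 1135, 1841 and 1431 in LF/LCL cows 617, 79 and 527, 2311 in SF/SCL cow 856, 4758 in cow 489215 and 1241 in cow 97. The groups overlapped, with means of 1469 ± 355 and 2770.2 ± 1803 (SD, n = 3 each). The log2 fold change of 0.73 (standard error 0.49) was 0.23 (standard error 0.30) without cow 489215.

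Macrophages of tissues recycle iron from red cells and are rich in HMOX1, ferritin and ferroportin. The summed level of the 11 macrophage markers detected was 1938 to 5015 in LF/LCL, 2432 in cow 489215, and 5999 and 4551 in cows 856 and 97. CD163, the hemoglobin scavenger receptor of macrophages, was at 21.3 in cow 489215 and at 44.0 to 384 in the other cows. Cow 489215 therefore had the highest FTH1, FTL and HMOX1 with a macrophage sum inside the range of the other cows and the lowest CD163. Red cell transcripts were scarce everywhere, with HBB at 0 to 2.66 and the summed list of 5 rows at 25.3 in cow 489215 and 5.27 to 13.005 in the others. The part of these cells in the ferritin and HMOX1 values was not tested.

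**Figure D2:**
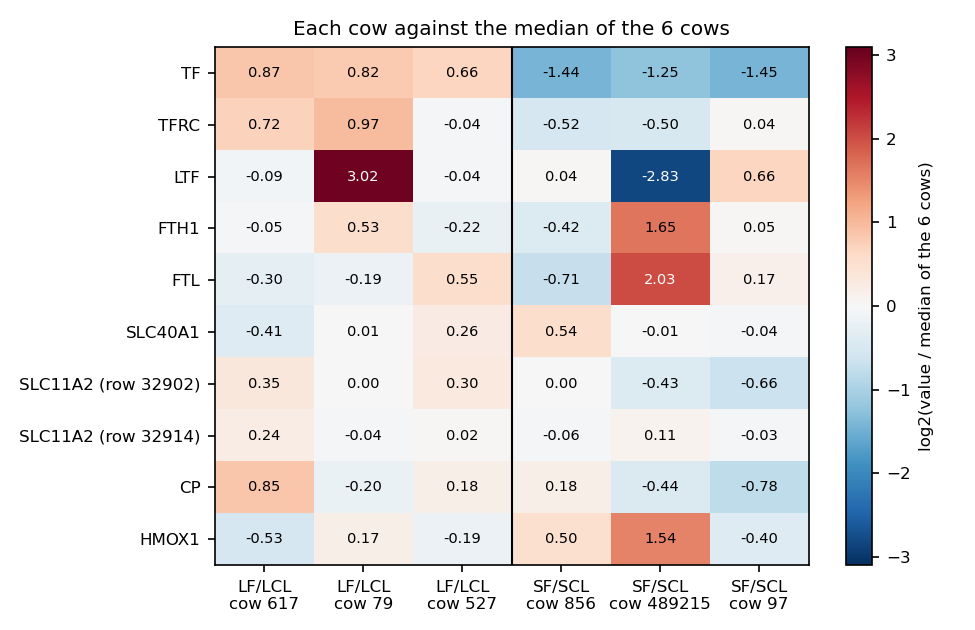
Log2 of the value of each cow over the median of the 6 cows, for the 10 rows; red is above and blue below the median, and the black line parts LF/LCL from SF/SCL. Cow 489215 stands at 1.65, 2.03 and 1.54 for FTH1, FTL and HMOX1 and at -2.83 for LTF, while TF alone is above the median in each LF/LCL cow and below it in each SF/SCL cow.

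SLC40A1 (ENSBTAG00000010498), the ferroportin that exports iron, had 1353, 1813 and 2153 in LF/LCL cows 617, 79 and 527 and 2619, 1779 and 1751 in SF/SCL cows 856, 489215 and 97, and the groups overlapped. The log2 fold change was 0.21 (standard error 0.26), with means of 1773 ± 401 and 2049.7 ± 493 (SD, n = 3 each). Without cow 489215 the log2 fold change was 0.30 (standard error 0.24). Cow 489215 was at 0.98 times the median of the other cows, so ferroportin did not share the peak of ferritin and HMOX1 in that cow.

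CP (ENSBTAG00000012164), the ferroxidase that loads iron onto transferrin, had 386, 186 and 242 in LF/LCL cows 617, 79 and 527 and 242, 157 and 125 in SF/SCL cows 856, 489215 and 97. The groups overlapped, although cows 489215 and 97 had the lowest values. The log2 fold change was -0.62 (standard error 0.40), and without LF/LCL cow 617 it was -0.33. Without cow 489215 it was -0.57 (standard error 0.40).

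SLC11A2, which moves iron out of the endosome, stands on a pair of rows between which its reads could have been divided. The row ENSBTAG00000032902 had 778, 609 and 752 in LF/LCL cows 617, 79 and 527 and 609, 451 and 386 in SF/SCL cows 856, 489215 and 97. Its groups met at cows 79 and 856, whose values were 609.165 and 609.183, and the log2 fold change was -0.58 (standard error 0.25). Without cow 489215 it was -0.55 (standard error 0.22). The row ENSBTAG00000032914 was the steadiest of the 10, with 1229 to 1505 over the 6 cows, a 1.22-fold range, and a log2 fold change of -0.06 (standard error 0.17). Without cow 489215 this log2 fold change was -0.11 (standard error 0.11). Whether the rows differ from each other was not tested, and the transcripts to which each row belongs were not given in the sources used here.

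Counted over the fit of all 15387 genes, 0 of the 9 tested rows passed a Benjamini-Hochberg adjusted p of 0.05 in limma, where 0% of all genes did. At an unadjusted p under 0.05 in limma there were 2 rows, TF and TFRC, both higher in LF/LCL, where 8.66% of all genes were found, 4.48% with LF/LCL above and 4.19% with SF/SCL above. The quasi-likelihood test of edgeR on the recovered reads called 0 rows, and its unadjusted p was under 0.05 for the same pair and for 8.58% of all genes. DESeq2 called 1 row, TF, where it called 2.70% of all genes, and 1.35% as higher in LF/LCL. Without cow 489215, limma called 1 row, again TF, where it called 18.2% of all genes, and 7.92% as higher in LF/LCL. With array weights, which let limma count a divergent library less, it called 3 rows, where it called 29.8% of all genes. Since these counts come from the contrast around which the genes were gathered, nothing is read from them. Of the 9 rows, 5 had a log2 fold change below 0 and 4 above it, with a median of -0.06, and the median over all genes tested was -0.02.

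**Figure D3:**
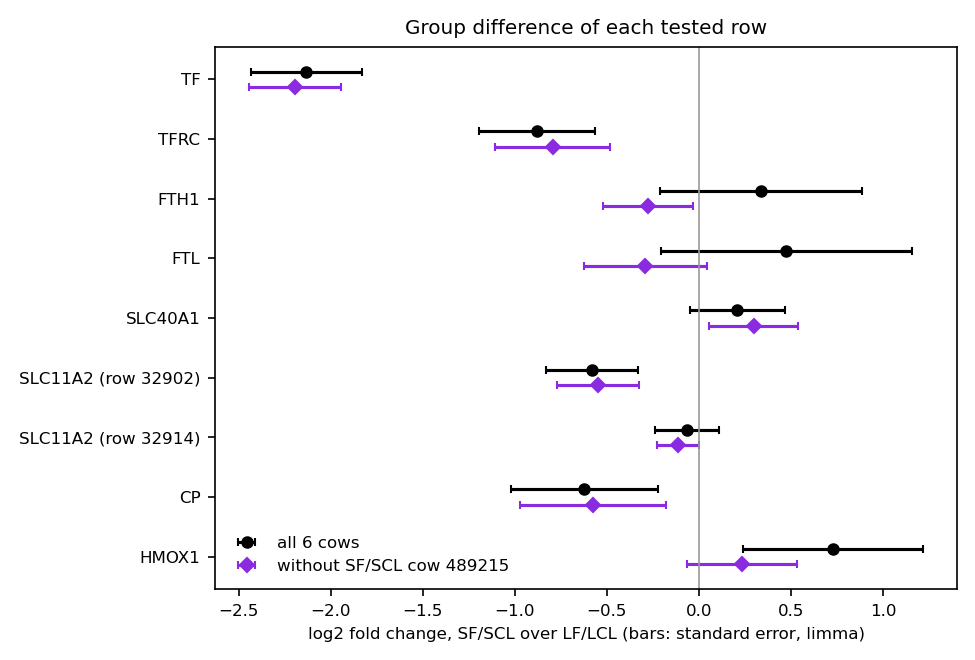
Log2 fold change of SF/SCL over LF/LCL (horizontal axis) of the 9 tested rows, with all 6 cows in black and without SF/SCL cow 489215 in violet; bars are the standard error from limma. TF stays at -2.13 and -2.20, while FTH1 and FTL pass from 0.34 and 0.48 to -0.28 and -0.29.

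Ratios between members within a library do not depend on the size factors. Of 6 ratios computed, all chosen with the values of the genes known, TFRC over TF and FTH1 over TFRC did not overlap between the groups. TFRC over TF carries the difference of TF, around which the genes were gathered, so nothing is read from its separation. LTF over TF overlapped, at 16.5 to 147 in LF/LCL and 10.75 to 138 in SF/SCL. FTH1 over TFRC, storage set against uptake, was 3.87 in LF/LCL cow 617, 4.85 in cow 79 and 5.78 in cow 527. It was 7.05 in SF/SCL cow 856, 29.2 in cow 489215 and 6.63 in cow 97. The gap between the groups was small beside the distance of cow 489215 from the rest. FTL over TFRC overlapped, at 0.60 to 2.03 in LF/LCL and 1.19 to 7.82 in SF/SCL, as did SLC40A1 over TFRC, at 0.59 to 1.57 and 1.22 to 2.68. Since the counts are not divided by gene length, a ratio can be compared between cows but does not say which of a pair of genes had more transcripts.

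**Figure D4:**
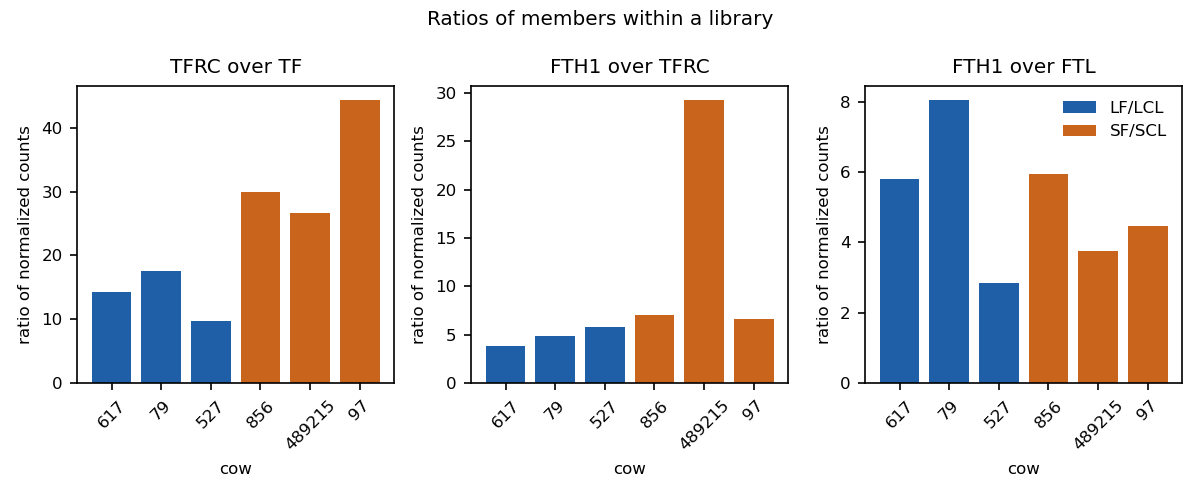
Ratio of normalized counts within each library (vertical axis, from 0) for TFRC over TF, FTH1 over TFRC and FTH1 over FTL, 1 bar per cow, LF/LCL in blue and SF/SCL in orange. TFRC over TF is 9.75 to 17.6 in LF/LCL and 26.7 to 44.3 in SF/SCL, and cow 489215 reaches 29.2 for FTH1 over TFRC.

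The wider machinery of iron and heme was taken from lists of 59 symbols, some of them older names of the same gene, of which 55 were found and 50 tested. In limma, 0 of the 50 passed the adjusted threshold and 5 had an unadjusted p under 0.05, with SF/SCL above in 2 and LF/LCL above in 3, where the share over all genes was 8.66%. DESeq2 called 3, where it called 2.70% of all genes, and edgeR 0. Without cow 489215 limma called 11, with LF/LCL above in 6 and SF/SCL above in 5, where it called 18.2% of all genes, 7.92% with LF/LCL above. Groups without overlap were found for 7 of the 50 and for 18.1% of all genes. The median log2 fold change was -0.02, as over all genes, with 28 below 0 and 22 above.

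The largest difference among them was that of LRP2, megalin, an endocytic receptor of epithelia that with cubilin takes up carrier proteins, transferrin among them. LRP2 had 9318, 13394 and 14466 in LF/LCL cows 617, 79 and 527 and 1161, 3167 and 1331 in SF/SCL cows 856, 489215 and 97. Its groups did not overlap, with a log2 fold change of -2.84 and a standard error of 0.41. The Benjamini-Hochberg adjusted p of LRP2 in limma was 0.351, a value it shared with many genes, TF among them. Without cow 489215 its log2 fold change was -3.29 (standard error 0.19), with a limma Benjamini-Hochberg adjusted p of 0.0015. In that setting limma called 18.2% of all genes. LRP2 is also listed by the study among the genes that differ in these libraries, so its place here is not independent. CUBN, cubilin, was low, at 31.6 to 47.1 in LF/LCL and 47.1 to 81.3 in SF/SCL, with a log2 fold change of 0.70 (standard error 0.38). TFR2, the second transferrin receptor, was lower still, at 6.503 to 22.0 over the 6 cows.

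The zinc transporters SLC39A8 and SLC39A14, which also carry iron that is not bound to transferrin, differed in opposite directions. SLC39A8 had 465, 405 and 461 in the LF/LCL cows and 254, 328 and 255 in SF/SCL cows 856, 489215 and 97, a log2 fold change of -0.68 (standard error 0.23). SLC39A14 had 1416, 1438 and 1515 in the LF/LCL cows and 2706, 1797 and 3097 in SF/SCL cows 856, 489215 and 97, a log2 fold change of 0.76 (standard error 0.24). The groups did not overlap for either gene. BLVRA, which reduces the biliverdin that heme oxygenase makes, was at 957 to 1293 in LF/LCL and 1752 to 2180.0 in SF/SCL, without overlap, with a log2 fold change of 0.79 (standard error 0.20). Each of these 3 genes passed the adjusted threshold in limma when cow 489215 was left out, where 18.2% of all genes did. None did with all 6 cows, where 0% of all genes did. Groups without overlap were found for 18.1% of all genes tested.

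Regulators of body iron were uneven. HAMP, the liver hormone hepcidin, was listed at 0 in every cow, which allows up to 3 reads per library for counting error. HFE2, which encodes hemojuvelin, had 1.05 in LF/LCL cow 617 and 0 in the others, at the floor of detection. TMPRSS6, the protease that cleaves hemojuvelin, had 187, 175 and 176 in LF/LCL cows 617, 79 and 527 and 87.4, 97.2 and 86.7 in SF/SCL cows 856, 489215 and 97. It was higher in each LF/LCL cow, with a log2 fold change of -0.98 (standard error 0.27). Without cow 489215 the log2 fold change of TMPRSS6 was -1.03 (standard error 0.20), with a limma Benjamini-Hochberg adjusted p of 0.020. In that setting limma called 18.2% of all genes. BMP6, the ligand that hemojuvelin helps to sense, had means of 132 and 74.3 without overlap of the groups, and a log2 fold change of -0.81 (standard error 0.35).

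Genes that sense iron inside the cell did not pass the test with all 6 cows. ACO1 and IREB2, which encode the iron regulatory proteins, had log2 fold changes of 0.14 (standard error 0.23) and -0.37 (standard error 0.41), and IREB2 was at 549.9 in cow 489215 and 1305 to 1539 in the others. ACO1 was at 6311 in cow 489215 and 3852 to 4631 in the others. Without that cow both turned, to -0.057 (standard error 0.13) for ACO1 and 0.12 (standard error 0.098) for IREB2. FBXL5, which tags the iron regulatory proteins for breakdown, and NCOA4, which brings ferritin to the lysosome, had log2 fold changes of -0.21 (standard error 0.19) and -0.01 (standard error 0.17). Without cow 489215, which had the highest FBXL5 value at 4078, FBXL5 was at -0.37 (standard error 0.082) and passed in limma with a Benjamini-Hochberg adjusted p of 0.027. SCARA5, a ferritin receptor, was abundant, with 4472 to 8624 over the 6 cows, and its groups overlapped.

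Reductases and oxidases that pass iron across membranes overlapped between the groups with all 6 cows. CYBRD1 was at 98.5 in cow 489215 and 289 to 408 in the others, and HEPH, the membrane relative of ceruloplasmin, at 358 and 623 to 942. STEAP3, the endosomal reductase, was at 49.3 in cow 489215 and 109.5 to 166 in the others. STEAP4 had 664.6 in cow 856, 69.2 in cow 489215, 424 in cow 97, and 239, 249.7 and 242 in LF/LCL cows 617, 79 and 527. Its overlap rested on cow 489215, and its log2 fold change went from 0.15 (standard error 0.81) to 1.121 (standard error 0.21) without that cow, higher in SF/SCL with a limma Benjamini-Hochberg adjusted p of 0.018. STEAP3 turned from -0.45 to 0.027 without that cow. In cow 489215 these 4 genes were thus the lowest of the 6 cows, where ferritin and HMOX1 were the highest. That cow was the lowest of the 6 for 35.7% of all genes tested and the highest for 36.7%.

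The scavengers of hemoglobin and heme in plasma were near the limit of detection. HP, haptoglobin, was at 0 to 33.4, with its highest value in cow 856, and HPX, hemopexin, was listed at 0 in 5 of the 6 cows and at 2.28 in cow 856. LCN2, which binds the iron carriers of bacteria, was at 14.7 to 27.2 in LF/LCL and 2.28 to 31.95 in SF/SCL. FLVCR1, a heme exporter, was at 381 in cow 489215 and 869 to 1350.4 in the others. HMOX2, the constitutive heme oxygenase, and BLVRB had log2 fold changes of -0.01 (standard error 0.31) and 0.14 (standard error 0.41), both with their highest value in cow 489215, at 3745 and 1891, and BLVRB turned to -0.31 without it. HFE, which binds the transferrin receptor, was at 66.6 in cow 489215 and 188 to 269 in the others, and its log2 fold change turned from -0.28 to 0.36 without that cow. CD163 turned likewise, from -0.77 to 0.32. In all, 18 of the 50 tested genes of these lists changed direction without cow 489215.

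**Figure D5:**
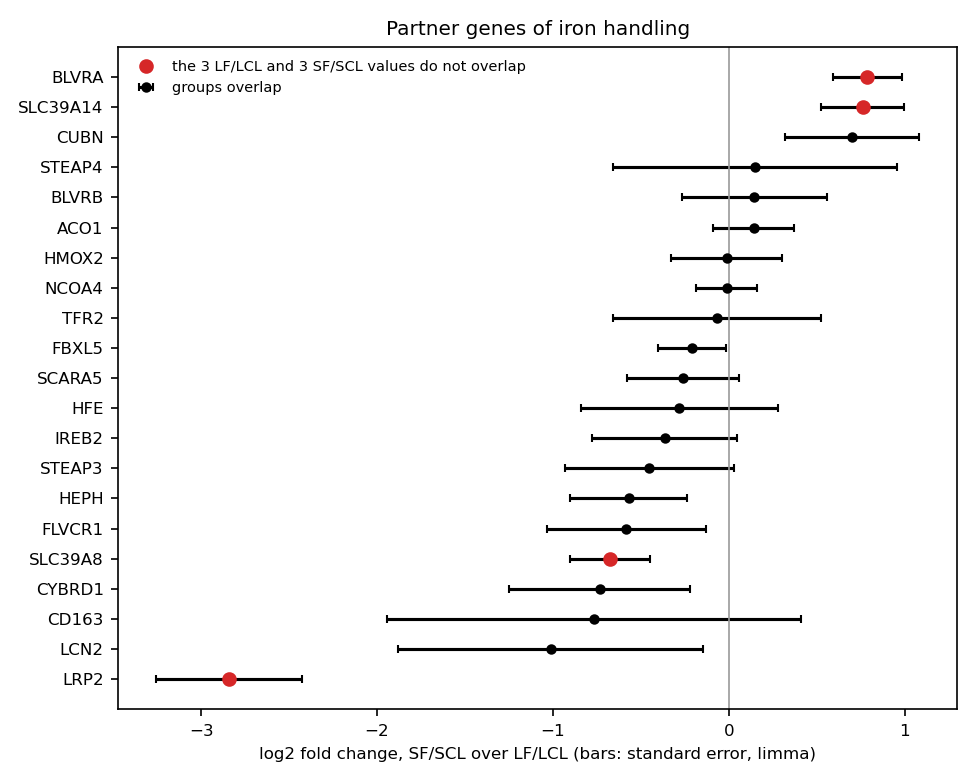
Log2 fold change of SF/SCL over LF/LCL (horizontal axis) of the 21 tested partner genes named by role, ordered by value; bars are the standard error from limma with all 6 cows, and red points are genes whose groups do not overlap. LRP2 lies at -2.84 and SLC39A8 at -0.68, and SLC39A14 and BLVRA at 0.76 and 0.79.

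Among the rows whose pattern over the 6 cows was most like that of TF, by Pearson's r of the log2 values among the 15387 that passed the filters, were TMPRSS6, PCDHA11, SNTB1 and COL4A2, with r of 0.997, 0.993, 0.991 and 0.990. These are the highest of very many values over 6 libraries that share 1 division into groups, and they are given as a description. TMPRSS6 was already on the list of iron genes. COL4A2, a chain of basement membrane collagen, had 16476 to 18907 in LF/LCL and 6297 to 7111 in SF/SCL, and SNTB1, a syntrophin of the dystrophin complex, had 1917 to 2154 and 824 to 965. These 4 were higher in each LF/LCL cow, and the ratio of the group means ran from 1.98 for TMPRSS6 to 4.33 for PCDHA11, below the 4.49 of TF. Of all genes tested, 8.60% were higher in each LF/LCL cow. These 4 were picked for their likeness to TF, so nothing is read from their separation.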

How the data were processed

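Total RNA of the isthmus was extracted, polyadenylated RNA was made into TruSeq libraries from 1 µg and sequenced as paired ends on a HiSeq 2500. Read quality was controlled by the authors with seqyClean. Alignment was to the masked bovine assembly UMD3.1 with TopHat2 2.0.8 and Bowtie2 2.1.0, reads with a unique place were counted per gene with HTSeq 0.5.4p2, and counts were divided by DESeq 1.12.1 size factors (versions from the submitters' processing notes). The deposited signal values are these normalized counts, not divided by gene length. Whether counting used the strand is not given in the sources used here. No annotation of UMD3.1 was used, so no positions are given, and symbols are those of the table.

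Dividing each library by the value of 1 read gave back whole reads for 100% of the 147696 values, within 0.01 of a read. Totals were 23899117 to 34193164 reads. SF/SCL was compared with LF/LCL without covariates by limma 3.58.1 in R 4.3.3 (trend and robust) on log2(value + 1), which understates changes of low genes. Tested were the 15387 genes whose mean over the cows exceeded both 5 and the SD, at a Benjamini-Hochberg adjusted p of 0.05. The study's methods describe this filter. The study reports 15922 analysed isthmus genes, which is the number here with a mean above 5 alone, a filter that LTF passed. The study used the DESeq test on counts. The deposited values are divided by size factors, so limma on their log scale was the main test here. The count models edgeR 4.0.16 and DESeq2 1.42.0 served as alternatives on the recovered reads. The scripts were tested on simulated data. Each cow is 1 animal, and no batch is named. Other alternatives were the pseudocount, the filters, TMM scaling, library size alone, array weights and leaving out each cow.

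The 9 genes and the lists were chosen with earlier results of these data known. Named were the 9 genes, 24 partner genes by role, the 5 rows most like TF, TFRC, LTF and HMOX1, cell type markers beside a member (1 such row and 1 marker are not reported here), and, after their values were seen, TMPRSS6, BMP6 and HFE2 from the wider list of 35 symbols. Marker lists of endothelium and mesothelium were also summed: endothelium gave 12653 to 16548 in LF/LCL and 10269 to 13897 in SF/SCL, and mesothelium 2538 to 3421 and 3528 to 26932, mostly from MSLN and WT1, whereas LRRN4 (175 to 412 and 3.80 to 16.3) and BNC1 (68.0 to 97.6 and 16.0 to 23.5), the 1 tested, were higher in LF/LCL cows. Tables and plots used Python 3.11.15, pandas 2.3.3, numpy 2.4.6, scipy 1.17.1 and matplotlib 3.10.9.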

Additional observations from a re-analysis of the deposited data

How the results depend on the processing

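Of the 15387 genes tested, 0 passed the adjusted threshold in limma, against 416 with DESeq2 and 4581 with array weights, whose estimate stopped before convergence and which gave cow 489215 a weight of 0.0477. Leaving out 1 cow gave 0 to 2827 genes, with 2827 without SF/SCL cow 489215 and 0 without any other. Of the iron genes, 1 passed with DESeq2 and 3 with array weights (TF, TFRC and the SLC11A2 row ENSBTAG00000032902), and leaving out 1 cow gave 0 to 1. TF stayed between -2.25 and -2.01 on the log2 scale under all 16 alternatives. FTH1 turned to -0.28 with array weights and ran from -0.28 to 0.76 as each cow was left out, FTL ran from -0.29 to 1.08, and HMOX1 turned to -0.15 with array weights. The SLC11A2 row ENSBTAG00000032914 ran from -0.12 to 0.018 as each cow was left out, above 0 without LF/LCL cow 617, and reached -0.15 in edgeR with library size alone. FTH1 and FTL turned when cow 489215, which held their highest values, was left out. The cause of the other changes was not tested. SLC40A1 ran from 0.019 without SF/SCL cow 856 to 0.36 without LF/LCL cow 527, so that its direction is uncertain. TFRC, CP and the SLC11A2 row ENSBTAG00000032902 kept their direction under all 16 alternatives, one of which, edgeR with library size alone, was added after seeing the data. LTF could be fitted in 3 of them. No paired analysis was possible because the groups share no cow number. Genes with few reads, such as TF, CUBN, LCN2, TFR2, HP, HPX, HFE2 and HAMP, are limited by counting error.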

Other observations

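The rows most like the other iron genes over the 6 cows, by Pearson's r of the log2 values, belonged to several functions. For TFRC they were COL23A1 (r = 0.986), GPER1 (r = 0.979), CCNY (r = 0.977), MGLL (r = 0.973) and MAB21L3 (r = 0.965), each with its highest values in LF/LCL cows 617 and 79, as TFRC had. GPER1, a membrane receptor that responds to estrogen, had 29.3, 32.9 and 22.0 in LF/LCL cows 617, 79 and 527 and 14.4, 14.6 and 18.4 in SF/SCL cows 856, 489215 and 97. Its groups did not overlap, nor did those of COL23A1, CCNY and MGLL, and the counts of GPER1 were low. LF/LCL lay above SF/SCL without overlap for 8.60% of all genes tested. These rows were picked for following TFRC, itself higher on average in LF/LCL, so nothing is read from their separation. For HMOX1 they were C1orf27, SUOX, NEURL2, GPN2 and TMEM55B, with r of 0.985 to 0.995 and the highest value of each in cow 489215. For LTF they were SNRNP200, NAT9, ZFYVE16, ABHD4 and TMEM200B, with r of 0.973 to 0.998. The ranges of these genes were far narrower than that of LTF, as SNRNP200 ran from 6293 in cow 489215 to 8602 in cow 79. These correlations were picked as the highest among all rows that passed the filters, over 6 libraries in which single cows hold the extreme values.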
